A study of Drosophila melanogaster with 24 samples.

Results

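Input RNA of heads that express Nab2-FLAG in neurons was compared with Input RNA of control heads, across all genes with enough counts. The comparison uses 8 of the 24 libraries of the series, 4 Nab2-FLAG and 4 control, identified by their titles and genotype labels. Nab2 is a zinc finger protein that binds polyadenosine RNA and is the Drosophila orthologue of human ZC3H14, a gene linked to intellectual disability. In flies it limits poly(A) tail length and takes part in nuclear RNA processing, and its loss in neurons impairs locomotion and memory. Nab2-FLAG heads had the genotype elav>Nab2-FLAG, in which the Gal4 activator, expressed from the neuronal elav driver, switches on a tagged Nab2 transgene. Control heads had the genotype elav>Gal4 alone, so the driver is shared by both groups. Control heads carried no tagged transgene, so expression of Nab2-FLAG cannot be told apart from other genetic differences between the groups. A further genotype, elav>Atx2-3xFLAG, carries a tagged transgene of Ataxin-2, a cytoplasmic RNA-binding protein that activates or represses translation. Its 4 Input libraries share in the estimate of the spread and are set beside some values. All heads came from adult females, at an age not given in the sources used here.

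Each library came from a lysate of 300 heads, which the labels call a biological replicate. Heads were fixed with formaldehyde and ground, exoskeleton pieces were strained off, the insoluble fraction was spun down, and 20% of the supernatant was kept as Input, before any antibody was added. Total RNA was depleted of ribosomal RNA and made into stranded libraries, so non-coding RNAs are measured beside mRNAs. The transgene is driven in neurons, while the RNA is that of whole heads, with eye, glia, fat body, muscle and epidermis. Total counts per library were 511415 to 1079829 in Nab2-FLAG and 665341 to 877212 in control. Mitochondrially encoded genes took 24.8% to 32.7% of them in Nab2-FLAG and 25.1% to 33.9% in control. Of 10819 genes with a count in the 8 libraries, 6147 passed the expression filter and were tested, with values given as CPM (counts scaled to a common library total) after TMM scaling over the 12 Input libraries. Between any 2 replicates of a group the counts differed beyond sampling noise, and the biological coefficient of variation was 0.123.

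Libraries separated by genotype on the first principal component, which held 36.6% of the variance of log2 CPM over the 8 libraries. The second component set the replicate 4 libraries apart from the other libraries of their genotypes. Control replicate 4, at -7.98 on the first component, lay nearest to Nab2-FLAG, which ran from 15.1 to 29.1, while the other control libraries ran from -26.7 to -20.2. In control replicate 4 the summed CPM of small nucleolar RNAs was 4202, against 2426 to 2460.1 in the other control libraries. Leaving out both replicate 4 libraries gave 432 higher and 298 lower genes, against 452 and 298 with them.

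The transgene was visible in the RNA of its own gene. Nab2 (FBgn0028471, chromosome arm 3R, 24314660 to 24318419 in Release 6 of the fly genome) had 99.2, 99.7, 83.7 and 142 CPM in the Nab2-FLAG libraries, against 23.8, 25.7, 17.0 and 19.3 CPM in the control libraries. Every Nab2-FLAG library lay above every control library, by 4.76-fold in the fit, a log2 difference of 2.25 (SE 0.20, edgeR quasi-likelihood adjusted p = 7.11e-12). The reads of the transgene and of the native gene are counted together, so the value is their sum. The driver gene elav, which encodes a neuronal RNA-binding protein, had 110.5 ± 7.47 CPM in Nab2-FLAG and 107 ± 17.2 CPM in control (SD, n = 4 each), with overlapping groups (0.05 in log2, edgeR adjusted p = 0.892). Atx2 had 187 ± 18.5 CPM in Nab2-FLAG and 225 ± 19.2 CPM in control (SD, n = 4 each) and w, the white gene of eye colour that serves as a transgene marker, had 49.7 ± 18.7 CPM in Nab2-FLAG and 63.8 ± 16.4 CPM in control (SD, n = 4 each). Neither was called (edgeR adjusted p = 0.149 for Atx2 and 0.594 for w). Sxl, the switch gene of female development, had 229 ± 15.0 CPM in Nab2-FLAG and 228 ± 20.9 CPM in control (SD, n = 4 each), again with overlap (edgeR adjusted p = 0.990).

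Of the 6147 genes tested, 452 were higher and 298 lower in Nab2-FLAG than in control Input at a Benjamini-Hochberg adjusted p under 0.05 (edgeR quasi-likelihood), which is 7.35% and 4.85% of the genes and 12.2% in all. These shares, 7.35% and 4.85%, are the background for the counts of called members of each list below. Most of these differences were small: 505 of the 750 called genes changed less than 2-fold. At least 2-fold higher were 201 genes (3.27%) and at least 2-fold lower were 44 (0.716%). The 4 Nab2-FLAG values lay wholly above or wholly below the 4 control values for 921 genes (15.0%). Scaled by library size alone, the median log2 difference of all genes was 0.16, against -0.02 under TMM. The calls then split into 663 higher and 107 lower (86.1% higher, where TMM gave 60.3%), and 26 genes were at least 2-fold lower. Leaving out 1 library at a time gave 344 to 484 genes higher and 218 to 332 lower.

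Calls followed abundance. The genes were cut into 4 equal bins by mean CPM over the 8 libraries. In the most abundant bin 26.2% were called, with 202 higher and 201 lower. The bin below it had 9.77% called and the next 7.55%, while the least abundant bin, at 2.16 to 13.7 CPM, had 5.27% called, with 63 higher and 18 lower. The smallest called log2 change was 0.30 in the most abundant bin and 1.08 in the least abundant. Chromosome arms were alike, with 11.3% to 12.8% of their tested genes called on arms 2L, 2R, 3L, 3R, 4 and X.

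**Figure D1:**
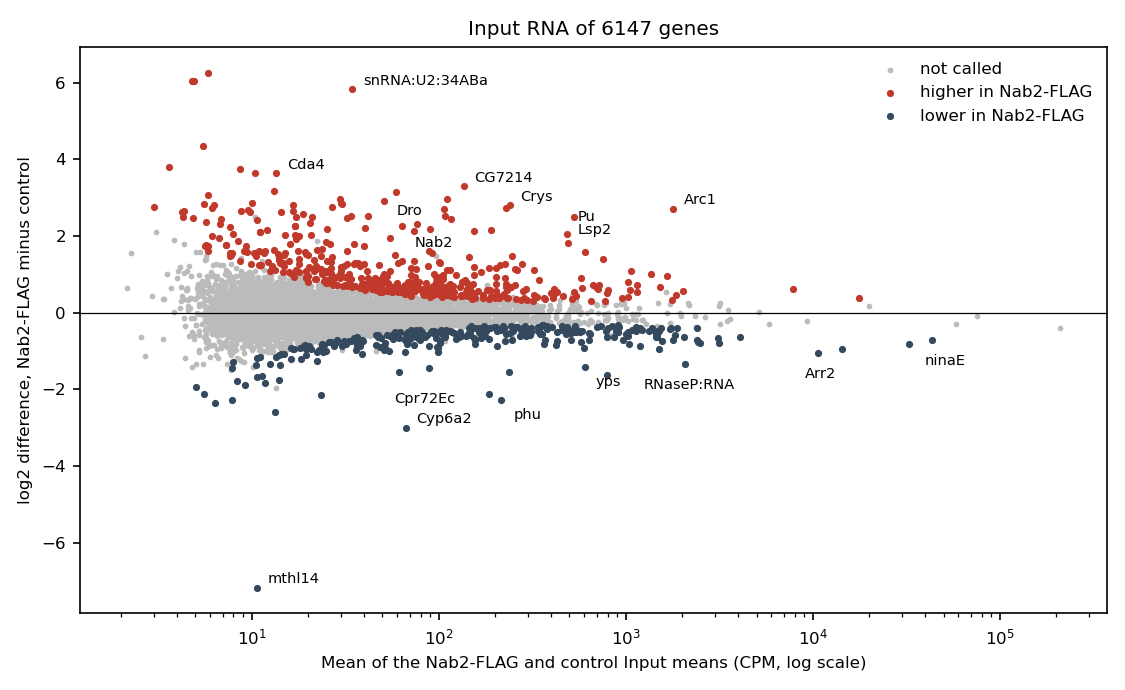
Input RNA of the 6147 tested genes: mean level in CPM on a log axis against the fitted log2 difference, Nab2-FLAG minus control. Red and blue points are the 452 genes higher and 298 lower in Nab2-FLAG (edgeR adjusted p under 0.05) and grey points were not called; at the far ends, such as mthl14, the fitted value depends on the prior count because a group has almost no counts.

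Genes of the exoskeleton were often higher. Cuticle proteins bind chitin or line the cuticle, chitin is made and shaped by a second set of enzymes and binding proteins, and tanning enzymes harden and colour it through dopamine. Among cuticle protein genes, 10 of 16 tested were higher and 1 lower, with a median log2 difference of 1.92. Over all genes 7.35% were higher and 4.85% lower. Only 16 of 125 such genes passed the filter, and a gene that passed through its level in the tagged genotypes alone had to differ. Of 28 tested chitin genes 19 were higher and 1 lower (median 1.53); the 1 lower call was lost without Nab2-FLAG replicate 1 or 4 or control replicate 2 or 3. Of 14 tested tanning genes 7 were higher (median 0.68). The lists of chitin and tanning genes were drawn up after values were seen. The filter kept 28 of 42 chitin genes and 14 of 22 tanning genes, and the same limit of the filter holds for them. The median of all genes was -0.02.

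Gasp, a chitin-binding protein, had 118, 109.7, 122 and 133 CPM in the Nab2-FLAG libraries, against 25.1, 23.0, 20.4 and 40.2 CPM in the control libraries. Its groups did not overlap, and Gasp rose by 2.14 in log2 (edgeR adjusted p = 2.36e-13). obst-A, a chitin-binding protein that organises the matrix, had 64.9, 77.7, 73.7 and 68.5 CPM in the Nab2-FLAG libraries, against 7.52, 6.77, 6.79 and 28.3 CPM in the control libraries, and rose by 2.54 (edgeR adjusted p = 4.24e-10). Control replicate 4 stood well above the other control libraries for obst-A and still below every Nab2-FLAG library. The chitin deacetylases Cda4 and Cda5, which modify chitin, rose by 3.64 and 1.62 in log2 (edgeR adjusted p = 5.21e-07 and 5.53e-09). Cda4 had 25.3 ± 8.74 CPM in Nab2-FLAG and 1.90 ± 1.49 CPM in control (SD, n = 4 each). The related chitin-binding gene obst-B and the chitinase Cht7 rose by 3.64 and 2.77 (edgeR adjusted p = 1.53e-06 and 3.51e-10).

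Cpr49Ae, a cuticle protein with a chitin-binding domain, had 142, 132, 95.0 and 139 CPM in the Nab2-FLAG libraries, against 23.8, 21.7, 23.7 and 32.7 CPM in the control libraries, a log2 difference of 2.32 (SE 0.18, edgeR quasi-likelihood adjusted p = 5.85e-14). Relatives with the same kind of domain, Cpr97Ea, Cpr97Eb and Cpr62Bc, rose by 2.53, 2.46 and 2.51 in log2 (edgeR adjusted p = 2.18e-07, 1.65e-09 and 4.24e-07). Acp1, adult cuticle protein 1, had 196 ± 23.8 CPM in Nab2-FLAG and 25.5 ± 17.5 CPM in control (SD, n = 4 each) and rose by 2.97 (edgeR adjusted p = 2.56e-07). Cpr72Ec went the other way, with 66.8, 71.3, 70.0 and 68.5 CPM in the Nab2-FLAG libraries, against 265, 237, 324 and 393 CPM in the control libraries. Its Nab2-FLAG values were close together and all below control, a log2 difference of -2.13 (SE 0.21, edgeR quasi-likelihood adjusted p = 1.13e-06). Crys, a structural protein of the corneal lens, had 326, 408, 442 and 498 CPM in the Nab2-FLAG libraries, against 32.6, 58.2, 64.5 and 86.3 CPM in the control libraries, and the groups lay far apart (2.80 in log2, edgeR adjusted p = 4.30e-10).

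In the tanning pathway, ple (pale) encodes tyrosine hydroxylase, the first enzyme of dopamine synthesis, and is also a marker of dopaminergic neurons. It had 252, 292, 304 and 407 CPM in the Nab2-FLAG libraries, against 45.1, 78.5, 57.7 and 96.7 CPM in the control libraries, a non-overlapping rise of 2.16 in log2 (edgeR adjusted p = 1.21e-10). Pu (Punch), the GTP cyclohydrolase that starts the synthesis of the cofactor of ple and of the red eye pigments, had 715, 693, 737 and 978 CPM in the Nab2-FLAG libraries, against 159, 157, 192 and 238 CPM in the control libraries, a log2 difference of 2.07 (SE 0.13, edgeR quasi-likelihood adjusted p = 7.47e-17). The laccase gene stw (straw), which oxidises catechols in the cuticle, and yellow-e rose by 1.32 and 2.25 (edgeR adjusted p = 1.62e-09 and 1.36e-05). The tanning list did not rise as a whole. Of its 14 tested genes 7 were not called and 5 had a negative log2 difference. Ddc, t and b, none of them called, stood at -0.11, -0.17 and -0.13. Other members of the eye pigment list included se (sepia) and pr (purple), both of pteridine synthesis, and Rab32, a GTPase of pigment granules. They rose by 0.85, 0.85 and 0.58 in log2 (edgeR adjusted p = 1.09e-05, 7.74e-05 and 0.000279). Of 21 tested pigment genes 5 were called higher, beside 7.35% of all genes, with a median of 0.33.

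The genes with the largest rises that passed the abundance and no-overlap conditions held several more of unassigned role. CG7214 had 270.2, 222, 230.0 and 270.3 CPM in the Nab2-FLAG libraries, against 17.6, 28.4, 8.48 and 44.7 CPM in the control libraries, a log2 difference of 3.30 (SE 0.29, edgeR quasi-likelihood adjusted p = 3.82e-06). CG11458, CG13722 and CG3984 rose by 3.16, 2.97 and 3.17 in log2 (edgeR adjusted p = 3.40e-05, 1.62e-09 and 5.94e-07). The calls of 3 genes in this set depended on which libraries were kept. Cht5, a chitinase, rose by 2.84 (edgeR adjusted p = 0.0241), but the call was lost without control replicate 1, 2 or 3, where the edgeR adjusted p reached 0.0762, and in a fit of the 8 libraries alone, at 0.0859. CG11413 (2.80 in log2, edgeR adjusted p = 0.0156) lost it without control replicate 1 or 2, and without both replicate 4 libraries, at up to 0.0617 without 1 library. CG8483 (2.87 in log2, edgeR adjusted p = 0.0337) lost it in 6 of the 8 leave-one-out fits, those without Nab2-FLAG replicate 2, 3 or 4 or without control replicate 1, 2 or 3, at up to 0.0992. The CG8483 call was also lost without the expression filter and in a fit of the 8 libraries alone.

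Most muscle genes tested were higher. Of 24 tested genes of the contractile apparatus, 19 were called higher, against a background of 7.35%, and 23 had a positive log2 difference. Their median was 0.77. Prm, the thick-filament protein paramyosin, had 354, 367, 415 and 444 CPM in the Nab2-FLAG libraries, against 133, 144, 178 and 193 CPM in the control libraries, and rose by 1.29 (edgeR adjusted p = 1.14e-11). Mhc, the myosin heavy chain, had 2180.4, 1964, 2254 and 2329 CPM in the Nab2-FLAG libraries, against 1051, 1094, 1018 and 1347 CPM in the control libraries, and rose by 0.95 (edgeR adjusted p = 8.28e-10). Neither gene's groups overlapped. Act57B, a muscle actin, and Mlc1, the alkali light chain of myosin, rose by 1.10 and 1.27 (edgeR adjusted p = 1.17e-11 and 8.82e-11). Msp300, a giant nesprin of muscle nuclei, was the most abundant member that was not called, with 2537 ± 84.5 CPM in Nab2-FLAG and 2755 ± 195 CPM in control (SD, n = 4 each).

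Summed over the 24 muscle genes, Input held 13368, 12521, 13761 and 14481 CPM in the Nab2-FLAG libraries, against 8965, 9124, 8724 and 9862 CPM in the control libraries. In bulk RNA of heads, a difference in the number of cells of a type and a difference in the RNA of each cell cannot be told apart. Across the alternatives, 17 to 22 members were called higher, the median stayed between 0.70 and 0.96, and 19 were called without the replicate 4 libraries.

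**Figure D2:**
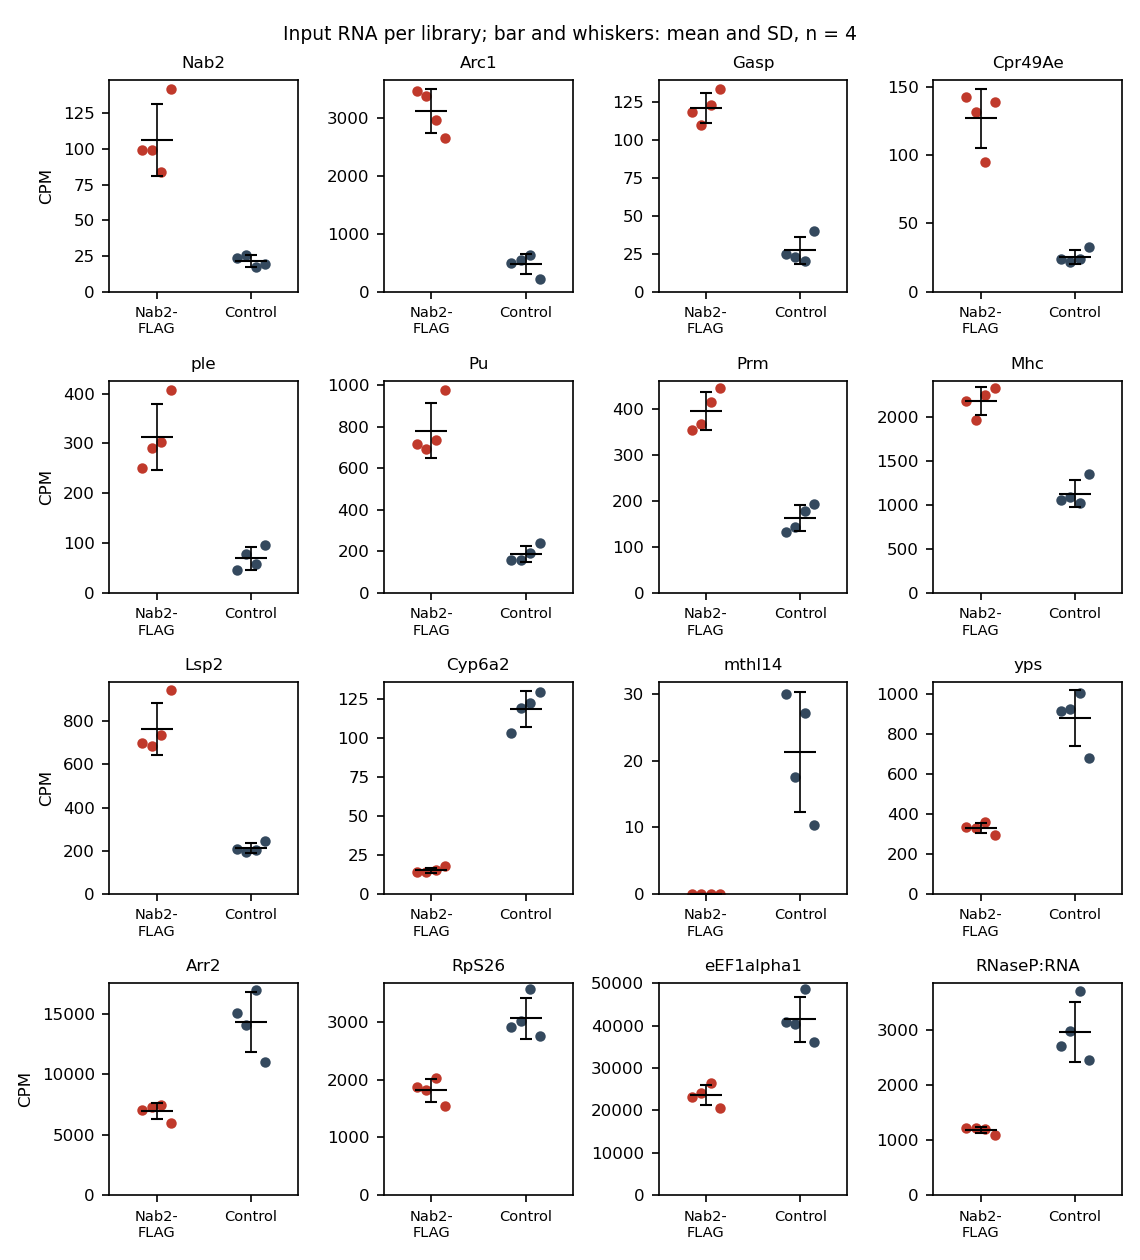
CPM of 16 genes in the 4 Nab2-FLAG (left, red) and 4 control (right, blue) Input libraries, with the mean and SD. Each axis starts at 0; the first 9 genes lie higher in Nab2-FLAG and the last 7 lie lower, with no overlap between the groups in any panel, and mthl14 had 0 counts in Nab2-FLAG.

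Many RNAs of ribosomal proteins were lower. All 81 tested cytosolic ribosomal protein genes had a negative log2 difference, from -0.86 to -0.01, and 59 were called lower, against a background of 4.85%. RpS26 had 1872, 1819, 2019.9 and 1545 CPM in the Nab2-FLAG libraries, against 2919, 3008, 3567 and 2752 CPM in the control libraries, a log2 difference of -0.75 (SE 0.11, edgeR quasi-likelihood adjusted p = 5.31e-07). RpS6, RpLP2 and RpS3, which like RpS26 are structural parts of the ribosome, fell by 0.71, 0.70 and 0.71 in log2 (edgeR adjusted p = 7.48e-07, 2.37e-06 and 2.46e-06). RpS7, the most abundant uncalled member, had 1565 ± 233 CPM in Nab2-FLAG and 1878 ± 211 CPM in control (SD, n = 4 each) and overlapping groups (edgeR adjusted p = 0.112). Without control replicate 4 RpS7 was called lower, at an edgeR adjusted p of 0.0400. The median of the list was -0.46. Scaled by library size alone, the median was -0.27, all genes stood at 0.16, and 26 members were called lower.

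Of 41 tested translation factor genes, a list drawn up after values were seen, 7 were lower and 1 was higher. Over all genes 4.85% were lower and 7.35% higher. The higher translation factor call was lost without Nab2-FLAG replicate 4 or control replicate 1, and 2 were higher without control replicate 4. Scaled by library size alone, 4 were lower. The lower ones included the elongation factor eEF1alpha1, which brings aminoacyl-tRNA to the ribosome, at 23256, 24157, 26498 and 20621 CPM in the Nab2-FLAG libraries, against 40884, 40416, 48606 and 36037 CPM in the control libraries. Its groups did not overlap (-0.81 in log2, edgeR adjusted p = 6.77e-07). Its partners in nucleotide exchange, eEF1beta and eEF1gamma, fell by 0.82 and 0.63 (edgeR adjusted p = 7.35e-07 and 7.32e-06), and the initiation factor subunit eIF3f1 fell by 0.73 (edgeR adjusted p = 3.93e-05). pAbp, the cytoplasmic poly(A)-binding protein, had 2284 ± 121 CPM in Nab2-FLAG and 2429 ± 145 CPM in control (SD, n = 4 each) and was not called (edgeR adjusted p = 0.646).

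Small non-coding RNAs made by RNA polymerase III were lower as well. The 5 tested members of a list drawn up after values were seen were all called lower, at a median of -0.95. RNaseP:RNA, the catalytic RNA of the enzyme that trims tRNA precursors, had 1223, 1213, 1192 and 1095 CPM in the Nab2-FLAG libraries, against 2709.7, 2970.3, 3713 and 2448 CPM in the control libraries. It fell by 1.32 in log2 (edgeR adjusted p = 1.14e-11), with no overlap. RNaseMRP:RNA, of the related enzyme that cuts ribosomal RNA precursors, had 9363, 9469, 9937 and 10198 CPM in the Nab2-FLAG libraries, against 17393, 18179, 22716 and 17148 CPM in the control libraries, and fell by 0.95 (edgeR adjusted p = 3.49e-08). snRNA:7SK, which holds the elongation factor P-TEFb inactive, fell by 0.95 (edgeR adjusted p = 0.00127), and 7SLRNA:CR32864, the RNA of the signal recognition particle, by 0.68 (edgeR adjusted p = 0.000664). The second 7SL gene is a near copy, so reads may be split between them.

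Calls of small nucleolar RNAs depended on the libraries and settings used. Of 47 tested, 4 were lower and 0 higher in edgeR, beside 4.85% and 7.35% of all genes, at a median of -0.16. DESeq2 called 3 lower and 0 higher by adjusted p. By unadjusted p under 0.05, edgeR had 3 higher. Without control replicate 4 the median was 0.40, with 3 lower and 3 higher, and without Nab2-FLAG replicate 2 there were 2 lower. Across the alternatives the median ran from -0.40 to 0.40, with 2 to 7 lower and 0 to 3 higher. The list summed to 2009 to 2929.5 CPM in Nab2-FLAG and 2426 to 4202 CPM in control. snoRNA:Psi18S-1820 and snoRNA:Psi28S-291, guides of pseudouridylation in ribosomal RNA, fell by 0.84 and 0.66 (edgeR adjusted p = 1.39e-06 and 0.00169). snRNA:U11, of the minor spliceosome, had 120.3 ± 28.0 CPM in Nab2-FLAG and 194 ± 43.3 CPM in control (SD, n = 4 each) and fell by 0.72 (edgeR adjusted p = 0.00129). The U2 gene snRNA:U2:34ABa had 71.7, 77.7, 73.7 and 49.1 CPM in the Nab2-FLAG libraries, against 1.25, 0, 3.39 and 0 CPM in the control libraries. Over the 4 libraries that is 245 counts in Nab2-FLAG and 3 in control, a ratio of 65.6 with an exact 95% interval of 22.2 to 320.4 that covers counting error only. U2 genes are near-identical copies, so the assignment of its reads is uncertain. Of 23 tested long non-coding RNAs 1 was higher and 2 were lower, beside 7.35% and 4.85% of all genes. lncRNA:CR34335 rose by 0.59, and lncRNA:CR32553 and lncRNA:CR31451 fell by 2.28 and 0.44 (edgeR adjusted p = 6.11e-05, 0.00219 and 0.0282). The lncRNA:CR31451 call was lost without Nab2-FLAG replicate 3 or 4 or control replicate 2, and without Nab2-FLAG replicate 3 a second one was higher.

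**Figure D3:**
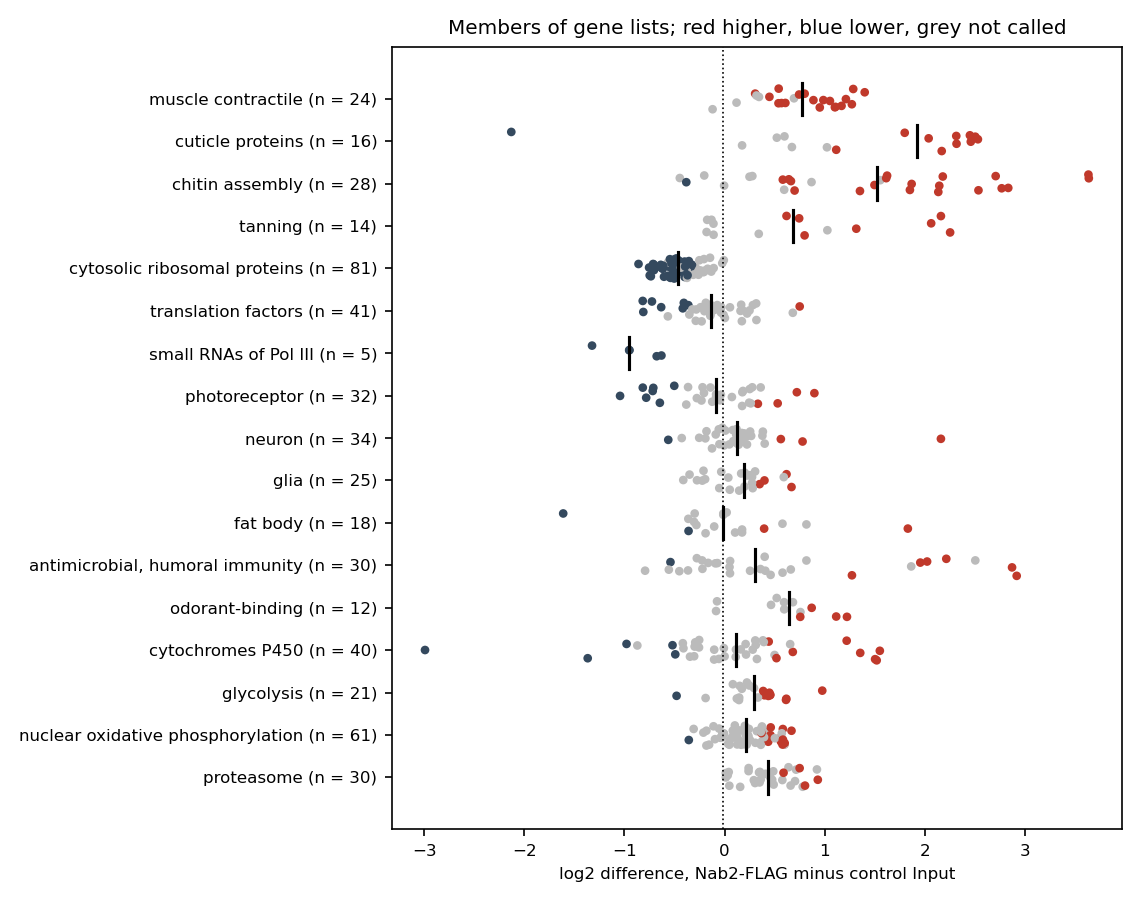
Fitted log2 difference, Nab2-FLAG minus control Input, of each tested member of 17 gene lists. Red points are higher, blue points lower and grey points not called (edgeR adjusted p under 0.05), black bars are list medians, the dotted line is the median of all 6147 genes, and points are spread vertically at random; muscle, cuticle and chitin genes lie to the right, and ribosomal proteins and small RNAs of polymerase III to the left.

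Photoreceptor genes moved in both directions. Of 32 tested, 7 were lower and 4 higher, beside 4.85% and 7.35% of all genes. Scaled by library size alone, 7 were higher. The opsin ninaE, the rhodopsin of the outer photoreceptors, had 34188, 35218, 35981 and 26518 CPM in the Nab2-FLAG libraries, against 58764, 53934, 62265 and 42010.3 CPM in the control libraries, a log2 difference of -0.72 (SE 0.12, edgeR quasi-likelihood adjusted p = 2.83e-05). Among opsins of the inner photoreceptors, Rh3, Rh4 and Rh5 were called lower and Rh6 higher. Rh4 fell by 0.82 and Rh3 by 0.71 (edgeR adjusted p = 1.44e-07 and 0.00262), and the log2 difference of Rh5 was -0.50. Rh6 rose by 0.53 (edgeR adjusted p = 0.000242). Rh6 had 585, 664, 657 and 595 CPM in the Nab2-FLAG libraries, against 488, 414, 459.7 and 369 CPM in the control libraries, without overlap. Arr2, the major arrestin that switches rhodopsin off, had 7077, 7312, 7429.8 and 5936 CPM in the Nab2-FLAG libraries, against 15107, 14112, 16972 and 11051 CPM in the control libraries, a fall of 1.04 (edgeR adjusted p = 1.80e-09), and Arr1 fell by 0.65 (edgeR adjusted p = 0.00174). Arr1, Rh3 and Rh5 are named after their values were seen.

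Among the channels of the light response, trpl had 1838 ± 169 CPM in Nab2-FLAG and 3165 ± 203 CPM in control (SD, n = 4 each), a fall of 0.78 in log2 (edgeR adjusted p = 1.44e-07). The channel gene trp had 3193 ± 149 CPM in Nab2-FLAG and 3719.8 ± 235 CPM in control (SD, n = 4 each) and was not called, though its groups did not overlap (edgeR adjusted p = 0.184). rdgA, the diacylglycerol kinase that ends the light response, had 747, 838, 786 and 948 CPM in the Nab2-FLAG libraries, against 410.0, 501, 472 and 627 CPM in the control libraries, and rose by 0.72 (edgeR adjusted p = 3.30e-06). eys, a secreted protein that opens the space between rhabdomeres, had 717, 711, 692 and 865 CPM in the Nab2-FLAG libraries, against 331, 328, 404 and 540.3 CPM in the control libraries, and rose by 0.90 (edgeR adjusted p = 8.63e-06). For rdgA and eys the groups did not overlap. Summed over the list, Input held 67521, 70395, 70704 and 60220.5 CPM in the Nab2-FLAG libraries, against 102733, 96566, 109950.0 and 82138 CPM in the control libraries. Most of each sum was RNA of ninaE and Arr2, so it does not describe the list as a whole. The median log2 difference of the list was -0.08, with 13 members positive and 19 negative, and 21 were not called.

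Calls of neuronal markers were about as frequent as over all genes. Of 34 tested, 3 were higher and 1 lower, beside 7.35% and 4.85% of all genes, at a median of 0.12, and the list summed to 7215 to 7762 CPM in Nab2-FLAG and 6383 to 7524 CPM in control. Without control replicate 4, 5 were higher. Besides ple, Gad1, which makes the inhibitory transmitter GABA, had 76.1 ± 11.6 CPM in Nab2-FLAG and 43.6 ± 12.1 CPM in control (SD, n = 4 each), a rise of 0.78 (edgeR adjusted p = 0.00168). nSyb, the vesicle SNARE of synapses, had 383, 387, 351 and 419.5 CPM in the Nab2-FLAG libraries, against 489, 590.3, 621 and 575 CPM in the control libraries, a fall of 0.56 with no overlap (edgeR adjusted p = 0.000258). cpx, complexin, which clamps vesicle fusion, had 1631 ± 56.4 CPM in Nab2-FLAG and 1357 ± 57.4 CPM in control (SD, n = 4 each). Its groups did not overlap, but it missed the threshold in edgeR with TMM scaling (adjusted p = 0.0782). It passed in limma-voom and when scaled by library size alone. Of the ion channels, the potassium channel genes Irk2 and SK moved apart, by 0.58 and -0.45 (edgeR adjusted p = 0.00315 and 0.00479), among 39 tested.

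Arc1 (FBgn0033926, arm 2R, 14357927 to 14360297) encodes a protein that forms virus-like capsids, carries its own RNA between cells and is linked to synaptic plasticity and metabolism. It had 3469.5, 3382, 2971 and 2654 CPM in the Nab2-FLAG libraries, against 504, 543, 631 and 220.3 CPM in the control libraries. Arc1 was 6.58-fold higher in the fit, a log2 difference of 2.72 (SE 0.31, edgeR quasi-likelihood adjusted p = 0.000281). The lowest Nab2-FLAG library stood far above the highest control library. Of 26 tested learning and memory genes Arc1 was 1 of 2 called higher, beside 7.35% of all genes. The other call was lost without Nab2-FLAG replicate 1 or control replicate 1 or 2. The abundant microtubule protein gene futsch had 712 ± 54.2 CPM in Nab2-FLAG and 715 ± 91.0 CPM in control (SD, n = 4 each) with no call (edgeR adjusted p = 0.987).

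Antimicrobial peptides made up a second set. Of 30 tested genes of humoral immunity 6 were higher and 1 lower, beside 7.35% and 4.85% of all genes, with a median of 0.31. The higher ones were all peptide genes. The 1 lower call was lost without Nab2-FLAG replicate 1 or 3 or control replicate 1. Dro, drosocin, had 70.7, 101, 97.5 and 91.3 CPM in the Nab2-FLAG libraries, against 18.8, 9.48, 13.6 and 4.47 CPM in the control libraries, a log2 difference of 2.92 (SE 0.27, edgeR quasi-likelihood adjusted p = 2.83e-10). AttA, attacin A, which lies beside Dro on arm 2R and has a near copy, AttB, had 69.8, 108, 77.5 and 100.0 CPM in the Nab2-FLAG libraries, against 37.6, 27.1, 11.9 and 10.4 CPM in the control libraries, a rise of 1.96 (edgeR adjusted p = 1.08e-05). DptB, diptericin B, and IM1, a Bomanin, rose by 2.02 and 1.27 (edgeR adjusted p = 0.000563 and 0.000254). CecA1, cecropin A1, at 17.7 ± 9.63 CPM in Nab2-FLAG and 2.32 ± 3.20 CPM in control (SD, n = 4 each), rose by 2.87 (edgeR adjusted p = 0.00801); DESeq2 did not call it. In each of these 5 genes the lowest Nab2-FLAG library lay above the highest control library. IM2 and IM3, of the same list as IM1, were not called, at -0.28 and 0.05 in log2. Of the 30 genes 23 were not called and 11 had a negative log2 difference.

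Fat body genes, the source of many such peptides, were called in both directions. Of 18 tested, 2 were higher and 2 lower, beside 7.35% and 4.85% of all genes. Without control replicate 4, 4 were lower, and without Nab2-FLAG replicate 1 or control replicate 1 or 3, 1 was; without control replicate 2, 1 was higher. Lsp2, a storage protein, had 698, 684, 735 and 943 CPM in the Nab2-FLAG libraries, against 209, 196, 204 and 247 CPM in the control libraries, a log2 difference of 1.83 (SE 0.12, edgeR quasi-likelihood adjusted p = 5.07e-17). CG18135 had 373, 395, 394 and 398 CPM in the Nab2-FLAG libraries, against 1364, 1176, 1377 and 851 CPM in the control libraries, a fall of 1.61 (edgeR adjusted p = 5.85e-14). The groups did not overlap for either. Yp1, a yolk protein, had 51933 ± 5429 CPM in Nab2-FLAG and 64133 ± 9406 CPM in control (SD, n = 4 each) with no overlap, and was not called (edgeR adjusted p = 0.0872). It was called lower without control replicate 4 (edgeR adjusted p = 0.0351), without the expression filter and in limma-voom. Among glial markers, 4 of 25 were higher, or 2 without control replicate 1 and 2 without control replicate 3. Gs2, the glutamine synthetase that recycles glutamate in glia, had 852, 847, 840.0 and 874 CPM in the Nab2-FLAG libraries, against 517, 514, 506 and 609 CPM in the control libraries, and rose by 0.67 (edgeR adjusted p = 1.91e-06). Of 13 tested haemocyte markers 2 were higher and 1 lower. Pxn, peroxidasin, fell by 0.61, while the type IV collagen genes vkg and Col4a1 rose by 0.37 and 0.38 (edgeR adjusted p = 0.00643, 0.0197 and 0.0147). The vkg call was lost without Nab2-FLAG replicate 2 or 3 or control replicate 1 or 3, and the Col4a1 call without control replicate 2, where a second marker was lower.

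Markers of organs outside the head stayed near the detection limit. No testis marker passed the filter. The 2 ovary markers that did summed to at most 43.2 CPM in Nab2-FLAG and at most 45.1 CPM in control, and the 2 midgut markers to 3.51 to 21.9 CPM in Nab2-FLAG and 19.0 to 35.6 CPM in control. The part that muscle, eye or other cell markers play in the differences of the other lists was not tested.

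**Figure D4:**
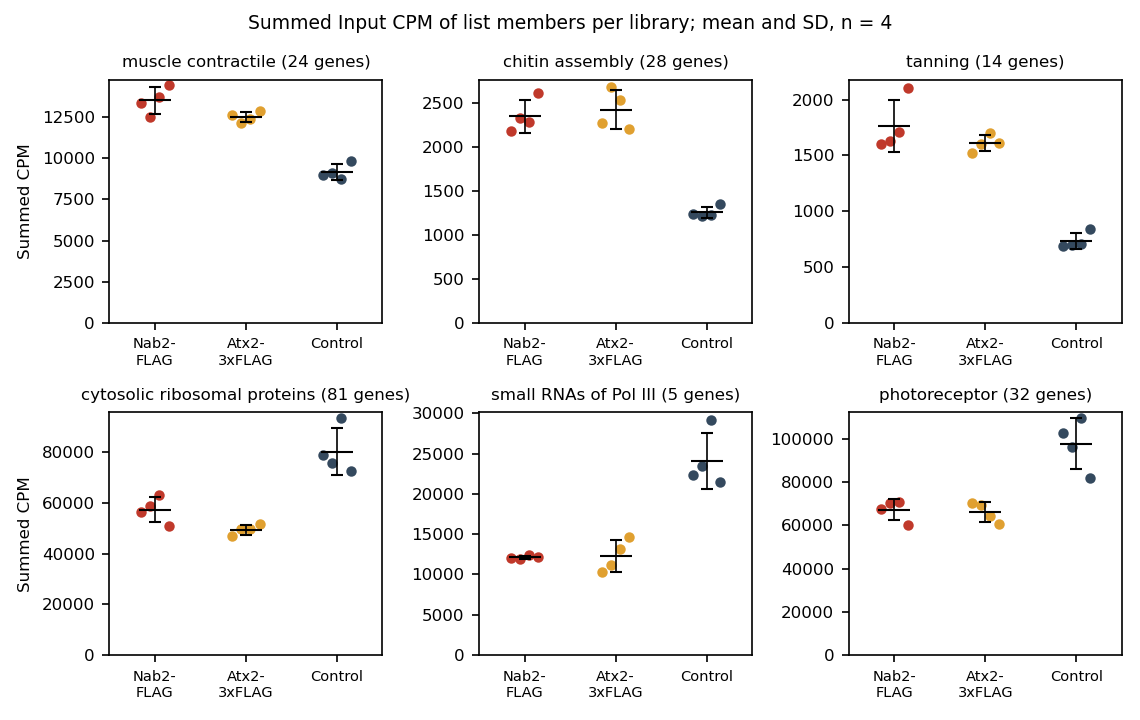
Summed Input CPM of the tested members of 6 gene lists in each library, with the mean and SD, for Nab2-FLAG (red), Atx2-3xFLAG (orange) and control (blue), 4 libraries each. In every panel the Nab2-FLAG libraries lie wholly above (muscle, chitin, tanning) or wholly below (ribosomal proteins, small RNAs of polymerase III, photoreceptor) the control libraries, and each axis starts at 0. The Atx2-3xFLAG libraries lie wholly on the same side of control as Nab2-FLAG in every panel. The photoreceptor sum is mostly RNA of ninaE and Arr2.

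Detoxification genes moved both ways. Of 40 tested cytochromes P450, the oxidases of hormones and foreign compounds, 8 were higher and 5 lower. Over all genes 7.35% were higher and 4.85% lower. Without Nab2-FLAG replicate 4 or without control replicate 3, 3 P450 genes were lower. Cyp6a2, known for its part in insecticide resistance, had 13.8, 13.7, 15.0 and 17.6 CPM in the Nab2-FLAG libraries, against 103, 119, 122 and 129 CPM in the control libraries. It was 7.96-fold lower, a log2 difference of -2.99 (SE 0.20, edgeR quasi-likelihood adjusted p = 2.07e-16). Cyp313a1 had 131, 144, 139 and 137 CPM in the Nab2-FLAG libraries, against 37.6, 54.2, 44.1 and 52.1 CPM in the control libraries, and rose by 1.55 (edgeR adjusted p = 2.57e-10). Cyp6a20, linked to aggression, and Cyp6a23 rose by 1.22 and 1.52 (edgeR adjusted p = 5.92e-05 and 0.000669). Odorant-binding proteins, which carry odorants in the lymph of sensilla, had 4 of 12 tested members higher, among them Obp56d, Obp56e and Obp19d, by 1.12, 1.22 and 0.76 (edgeR adjusted p = 7.54e-08, 2.56e-07 and 4.16e-05). Obp56d had 152 ± 19.3 CPM in Nab2-FLAG and 69.2 ± 9.61 CPM in control (SD, n = 4 each).

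The largest falls included mthl14, a receptor of the methuselah-like family (FBgn0052476, arm 3L, 247491 to 250305). It had 0 counts in all 4 Nab2-FLAG libraries, against 30.1, 17.6, 27.1 and 10.4 CPM in the control libraries. Against a floor of 3 counts over the group, it was at least 24.9-fold lower. Ipk1, an inositol phosphate kinase, had 1.97, 6.40, 3.75 and 1.76 CPM in the Nab2-FLAG libraries, against 18.8, 29.8, 28.8 and 14.9 CPM in the control libraries, and fell by 2.58 (edgeR adjusted p = 3.11e-05). phu had 65.8, 58.5, 61.2 and 116 CPM in the Nab2-FLAG libraries, against 396, 343, 407 and 272 CPM in the control libraries, a fall of 2.29 (edgeR adjusted p = 0.00207). No library of these genes overlapped the other group, which was a condition for naming the largest changes. Osi2, of the Osiris family, Uba3, a subunit of the enzyme that activates NEDD8, and CG32726 fell by 2.15, 1.68 and 1.64 (edgeR adjusted p = 5.44e-07, 0.00329 and 0.00681). CG8745 and CG8112 fell by 1.56 and 1.43 (edgeR adjusted p = 0.000848 and 2.45e-05). yps, a Y-box RNA-binding protein of mRNP particles, had 336, 329, 357 and 293 CPM in the Nab2-FLAG libraries, against 917, 927, 1004 and 680.2 CPM in the control libraries, a log2 difference of -1.42 (SE 0.11, edgeR quasi-likelihood adjusted p = 1.45e-13).

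Antisense genes are uncertain, since no source used here gives the strand option of the counting. asRNA:CR45046 fell by 1.83 (edgeR adjusted p = 0.00418). asRNA:CR45600 had 11.8, 8.23, 10.00 and 8.78 CPM in the Nab2-FLAG libraries and 0 counts in all control libraries, so it was at least 9.11-fold higher against the floor of 3 counts over the group.

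Among metabolic genes the calls were mostly higher. Of 21 tested glycolysis and sugar genes 9 were higher and 1 lower, at a median of 0.29; 4 were higher without Nab2-FLAG replicate 3 and 5 without control replicate 2. UGP, which makes UDP-glucose, rose by 0.98, the glycerol phosphate dehydrogenase Gpdh1 by 0.61 and the glycolytic dehydrogenase Gapdh1 by 0.62 (edgeR adjusted p = 4.10e-07, 6.22e-05 and 0.000187). Treh, trehalase, fell by 0.48 (edgeR adjusted p = 0.00186). Of 61 tested nuclear genes of oxidative phosphorylation 12 were higher and 1 lower, beside 7.35% and 4.85% of all genes, with 5 higher without control replicate 1. The lower one was ND-51, a complex I subunit, at -0.36 (edgeR adjusted p = 0.0498), a call lost in 6 of the 8 leave-one-out fits, those without Nab2-FLAG replicate 2, 3 or 4 or control replicate 1, 2 or 3. ATPsynbeta and ATPsynC of the ATP synthase rose by 0.60 and 0.46, and COX4 of cytochrome oxidase by 0.58 (edgeR adjusted p = 5.54e-05, 0.000585 and 0.000773). Among 11 mitochondrially encoded genes mt:CoIII was the 1 called, at 0.62 (edgeR adjusted p = 5.31e-05); without Nab2-FLAG replicate 3, 1 was lower, and without control replicate 4, 2 were.

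All 30 tested proteasome genes had a positive log2 difference, with a median of 0.43, but 4 were called higher. That count was 2 without Nab2-FLAG replicate 1 or 3, 1 without control replicate 2 and 0 in DESeq2, all by adjusted p. By unadjusted p under 0.05, edgeR had 10 higher. Rpn3, of the proteasome lid, had 42.0 ± 1.21 CPM in Nab2-FLAG and 24.9 ± 2.42 CPM in control (SD, n = 4 each) (0.75 in log2, edgeR adjusted p = 0.0123). Of 23 tested chaperone and heat shock genes 1 was higher and 2 were lower, beside 7.35% and 4.85% of all genes. Hsc70-4, the constitutive cytosolic chaperone, had 2279, 2476, 2544 and 1938 CPM in the Nab2-FLAG libraries, against 4204, 3714, 4833 and 3146 CPM in the control libraries, a fall of 0.78 (edgeR adjusted p = 7.48e-07), and its co-chaperone stv fell by 0.64 (edgeR adjusted p = 0.000299). The higher one was Hsp70Ba, an inducible chaperone with near-identical copies, at 20 counts over the 4 Nab2-FLAG libraries and 2 over the control libraries, a ratio of 8.04 with an exact 95% interval of 1.95 to 70.9. The Hsp70Ba call was lost without Nab2-FLAG replicate 2 or control replicate 1 or 3. Edem1, of degradation from the endoplasmic reticulum, fell by 0.61 (edgeR adjusted p = 0.00507).

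Other genes of RNA processing were compared with the 7.35% of all genes that were higher and the 4.85% that were lower. Of 21 tested genes of poly(A) addition, the nuclear exosome and mRNA export, Nab2 itself was the 1 called, with a second, lower one without Nab2-FLAG replicate 1. Of 35 splicing and hnRNP-type genes 2 were lower, or 1 without Nab2-FLAG replicate 1, 2 or 3 or control replicate 2 or 3, including mbl, the muscleblind splicing factor, with 687, 658, 687 and 688 CPM in the Nab2-FLAG libraries, against 1105, 1057, 1118 and 900.5 CPM in the control libraries, a non-overlapping fall of 0.62 (edgeR adjusted p = 7.33e-06). Of 32 genes of cytoplasmic RNA granules Edc3, which promotes decapping, fell by 0.85 (edgeR adjusted p = 0.00140), and without control replicate 4 a second gene was lower. Of 19 tested neuropeptide genes Nplp3 was the 1 called, with a second higher one without control replicate 4. It had 988, 873, 894 and 851 CPM in the Nab2-FLAG libraries, against 228, 241, 292 and 451 CPM in the control libraries, a log2 difference of 1.58 (SE 0.15, edgeR quasi-likelihood adjusted p = 2.17e-08). None of 20 tested clock genes was called by edgeR, with 2 at an unadjusted p under 0.05, both lower. DESeq2 and limma-voom called 0 and 0, and edgeR called 1 lower without control replicate 4.

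The other tagged genotype, Atx2-3xFLAG, gave Input values for the same genes. Atx2-3xFLAG was compared with the same 4 control libraries, so the 2 comparisons share them and are given side by side. In Atx2-3xFLAG Input 548 genes were higher and 469 lower than in control, 8.91% and 7.63% of the genes and 16.5% in all. Of the muscle genes 18 of 24 were higher there, with a median of 0.58, of the chitin genes 19 of 28, and of the ribosomal protein genes 70 of 81 were lower (median -0.67). Of the cuticle genes 11 of 16 were higher and 1 lower, and of the tanning genes 7 of 14 were higher. All 5 tested RNAs of polymerase III were lower. Of 41 translation factor genes 10 were lower and 3 higher, and of 32 photoreceptor genes 11 were lower and 9 higher. Cyp6a2 stood at 16.7 ± 6.03 CPM and mthl14 at 0.656 ± 0.829 CPM in Atx2-3xFLAG (SD, n = 4). Compared directly, Nab2-FLAG and Atx2-3xFLAG Input differed in 262 genes (4.26%), 161 higher (2.62%) and 101 lower (1.64%) in Nab2-FLAG (edgeR quasi-likelihood, adjusted p under 0.05). Of the ribosomal protein genes 5 were higher in Nab2-FLAG than in Atx2-3xFLAG, and of the muscle genes 2.

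The direct comparison set Nab2-FLAG apart for Nab2, Arc1 and several antimicrobial peptides, among other genes. Nab2 differed by 2.35 in log2 (edgeR adjusted p = 1.32e-12). Arc1 had 224 to 414 CPM in the 4 Atx2-3xFLAG libraries, and Nab2-FLAG was higher by 3.18 (edgeR adjusted p = 0.000311). Dro had 1.61 to 15.1 CPM in Atx2-3xFLAG, below every Nab2-FLAG library, a difference of 3.67 (edgeR adjusted p = 4.83e-12). AttA, DptB, IM1 and CecA1 were higher in Nab2-FLAG than in Atx2-3xFLAG by 3.14, 1.94, 1.39 and 2.43 (edgeR adjusted p = 8.53e-08, 0.000932, 9.21e-05 and 0.0224). In all, 8 of 30 genes of humoral immunity were higher in Nab2-FLAG than in Atx2-3xFLAG, beside 2.62% of all genes. Against control, 6 of the 30 were lower and 0 higher in Atx2-3xFLAG, at a median of -0.27. The direct difference can therefore hold a fall in Atx2-3xFLAG as well as a rise in Nab2-FLAG. Other lists differed too, with 7 of 13 haemocyte markers and 7 of 18 fat body genes higher in Nab2-FLAG than in Atx2-3xFLAG.

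Achl (Achilles), a clock-controlled gene of neurons known for its effect on immune gene expression, was lower than in both other genotypes. It had 30.5, 24.7, 23.7 and 50.9 CPM in the Nab2-FLAG libraries, against 92.8, 79.9, 72.9 and 113 CPM in the control libraries, a fall of 1.54 (edgeR adjusted p = 3.02e-07). Atx2-3xFLAG libraries had 67.6 to 112 CPM, all above Nab2-FLAG, a difference of -1.58 (edgeR adjusted p = 1.93e-07). Rgk2, a small GTPase of the RGK family, had 9.83, 6.40, 3.75 and 3.51 CPM in the Nab2-FLAG libraries, against 13.8, 20.3, 27.1 and 26.8 CPM in the control libraries. Rgk2 fell by 1.76 against control (edgeR adjusted p = 0.000263) and differed by -2.44 from Atx2-3xFLAG (edgeR adjusted p = 1.35e-07), where it had 33.3 to 38.6 CPM.

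For Crys, Cyp313a1, Gs2 and Cpr72Ec the Atx2-3xFLAG mean lay between those of Nab2-FLAG and control. Crys averaged 172 ± 19.4 CPM in Atx2-3xFLAG (SD, n = 4), and Nab2-FLAG was higher by 1.28 (edgeR adjusted p = 2.01e-05). Cyp313a1 and Gs2 were higher in Nab2-FLAG than in Atx2-3xFLAG by 0.79 and 0.48 (edgeR adjusted p = 0.000143 and 0.00134). Cpr72Ec was lower by 1.24 (edgeR adjusted p = 0.00154), with 95.1 to 193 CPM in Atx2-3xFLAG. CG3984 was higher by 1.43 (edgeR adjusted p = 0.00325). asRNA:CR45600 had 0 to 1.16 CPM in Atx2-3xFLAG, below every Nab2-FLAG library.

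**Figure D5:**
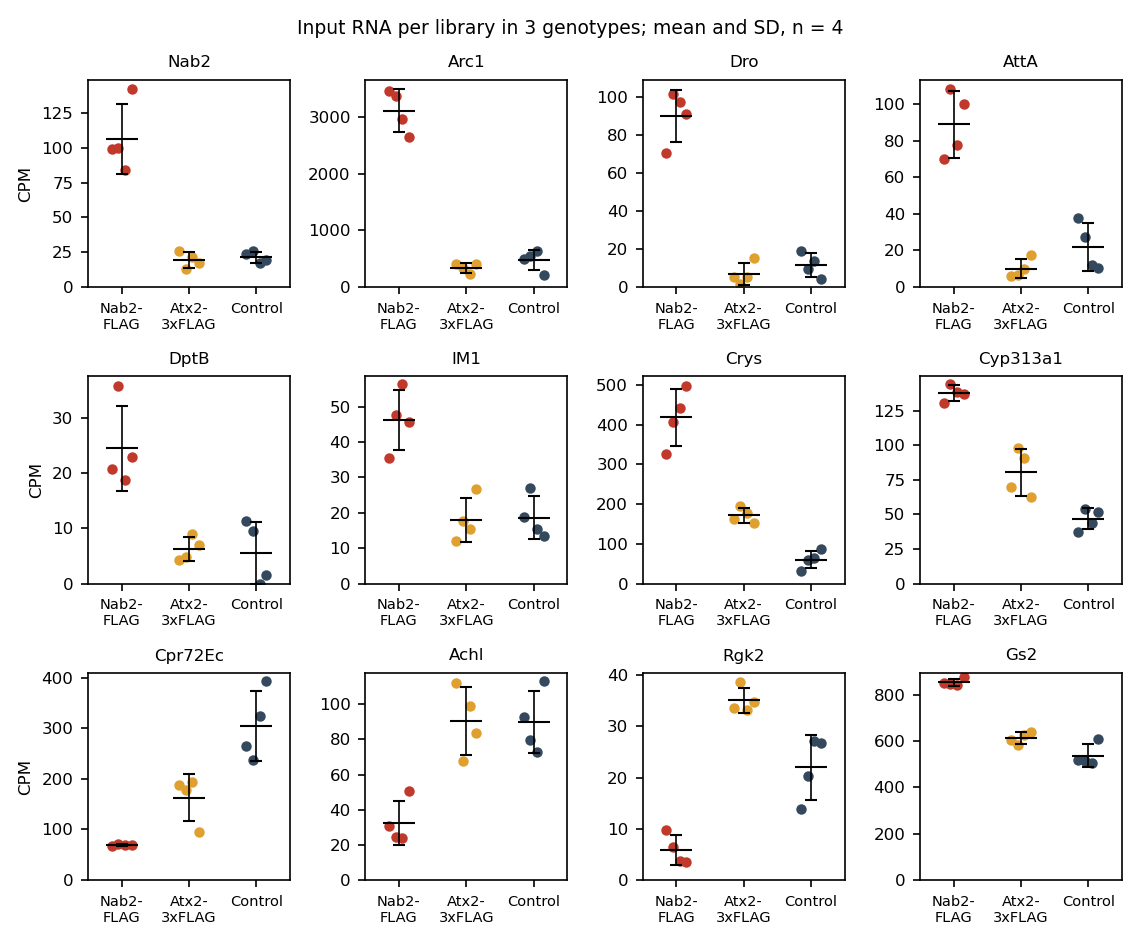
Input CPM of 12 genes in the 4 libraries of Nab2-FLAG (left, red), Atx2-3xFLAG (middle, orange) and control (right, blue), with the mean and SD; each axis starts at 0. Nab2, Arc1, the peptide genes Dro, AttA, DptB and IM1, Crys, Cyp313a1 and Gs2 are highest in Nab2-FLAG, and Cpr72Ec, Achl and Rgk2 are lowest there.

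The RNA pulled down with the FLAG antibody from the rest of each lysate (RIP) gave a second set of libraries from the same flies. They are other libraries of the same lysates, not other heads, and were selected with the antibody. In RIP, Nab2-FLAG was higher than control for 656 genes and lower for 571, 10.7% and 9.29% of the genes and 20.0% in all. Nab2 differed by 2.06 there, Arc1 by 2.14 and Dro by 2.51 (edgeR adjusted p = 1.15e-12, 6.60e-05 and 0.00119). Cyp6a2 differed by -3.01, Lsp2 by 1.86 and yps by -1.42 (edgeR adjusted p = 2.57e-16, 1.63e-12 and 2.71e-12). The muscle list had 19 of 24 higher with a median of 0.80, and the ribosomal protein list 58 of 81 lower with a median of -0.53. Small nucleolar RNAs had 25 of 47 higher in RIP at a median of 1.17, beside -0.16 in Input; the difference between RIP and Input was not tested. Uba3 and DptB, at -0.23 and 1.39 in RIP, were not called there (edgeR adjusted p = 0.758 and 0.261).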

How the data were processed

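Input RNA of 12 libraries was analysed, 4 each of Nab2-FLAG, Atx2-3xFLAG and control heads, with RIP values of Nab2-FLAG and control set beside it. The RIP values come from a separate fit of the same kind on the 12 RIP libraries, Atx2-3xFLAG included. Values are counts of reads per gene as deposited by the authors, in 1 table per library. Per the submitters' processing notes, reads were aligned with STAR 2.6.0b-1 to build BDGP6, counted with featureCounts 1.6.3 and compared with DESeq2 2.11.40.2. The strand setting and the annotation used are not given in the sources used here, so antisense, overlapping and near-identical genes are uncertain. Gene IDs and coordinates come from RefSeq's Release 6 gene table.

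From the counts, genes were kept with filterByExpr (minimum count 10) over the 6 groups of 24 libraries. They were fitted with edgeR 4.0.16 in R 4.3.3, with TMM scaling and the robust quasi-likelihood test on the 12 Input libraries. The contrast was Nab2-FLAG minus control, with Benjamini-Hochberg adjustment over all 6147 genes and a threshold of 0.05. The standard error of a log2 difference is its size divided by the square root of F. DESeq2 1.42.0, limma 3.58.1 and other scalings, filters, a replicate block and left-out libraries were alternatives. Replicates are separate lysates, per the labels. Bounds and intervals cover counting error only.

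The comparison and its gene lists were chosen with earlier results of these data known. The lists of chitin, tanning, translation factor and polymerase III genes followed a look at the values. So did the naming of Arr1, Rh3, Rh5, Ddc, t, b, IM2 and IM3. Named genes are Nab2, elav, Atx2 and w, then the 15 largest changes each way with a mean of at least 10 CPM, a call and no overlap. Up to 4 called members per list and direction and the most abundant uncalled member of a list were added, of which a part is printed.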

Additional observations from a re-analysis of the deposited data

Results flagged for a closer look

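Among 343 groups of 4 libraries, covering named genes and the summed lists, 21 held 1 library far from the other 3. Chance gives about 1 in 20 such groups, or 17.15 here.

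For several exoskeleton genes and for CG13722 and CG8483, control replicate 4 was the high library of its group. It had 28.3 CPM of obst-A, against 6.77 to 7.52 CPM in the other control libraries, 22.3 CPM of Cht5 (others 1.25 to 2.71), 16.4 CPM of CG13722 (others 2.71 to 3.76) and 23.8 CPM of CG8483 (others 0 to 2.71). Its summed chitin genes stood at 1354 CPM (others 1219.8 to 1241 CPM) and its tanning genes at 838 CPM (others 687 to 707 CPM). It was also high for Gs2, at 609 CPM against 506 to 517 CPM, and for summed small nucleolar RNAs, at 4202 CPM against 2426 to 2460.1 CPM.

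Both replicate 4 libraries were high for summed antisense RNAs, at 1847 CPM in Nab2-FLAG against 548 to 679 CPM in its other libraries, and at 1996 CPM in control against 547 to 677 CPM. Nab2-FLAG replicate 4 was high for Pu at 977.7 CPM, for eys at 865 CPM and for phu at 116 CPM, and low for CG8112 at 26.3 CPM.

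Of the other Nab2-FLAG libraries, replicate 1 was low for Rab32 at 279 CPM. Replicate 2 was low for mbl at 658 CPM, high for Uba3 at 8.23 CPM, and high for Hsp70Ba at 10.1 CPM (others 3.51 to 3.93), and high at 554 CPM for the sum of a stress list that holds the Turandot genes and genes of JAK/STAT signalling. Replicate 3 was high for pAbp at 2464 CPM and for the summed nuclear mRNA processing genes at 2939 CPM. For every called gene named in these paragraphs the Nab2-FLAG and control values did not overlap. For those named among the largest changes this was a condition of being chosen, so it says nothing about the flagged libraries.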

How the results depend on the processing

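With library size as the only scaling, 107 genes were lower in Nab2-FLAG and 26 were at least 2-fold lower, against 298 and 44 under TMM. With the expression filter set on the 8 libraries alone, 26 genes were at least 2-fold lower, and fewer genes, 4884, were tested. Every other count of calls over all genes stayed within 1.5 times its reported value. DESeq2 called 330 genes higher and 200 lower, limma-voom 429 and 286, and the fit without a filter 478 and 279. Leaving out 1 library gave 344 to 484 genes higher, 218 to 332 lower, 169 to 232 at least 2-fold higher and 35 to 55 at least 2-fold lower. The replicate numbers did not pair all the samples. The deviations of libraries with the same number correlated at 0.01, 0.01, 0.09 and 0.19 for replicates 1, 2, 3 and 4. Libraries of replicates 3 and 4 correlated best with their own number, and those of replicates 1 and 2 did not. Whether libraries of the same number share a batch was not tested. With the replicate block, 505 genes were higher and 365 lower. Over 124 of the genes named and the 18 alternatives no called log2 difference changed sign, while those of elav, Sxl, futsch, Msp300 and pAbp, none of them called, did. With library size alone the calls of snRNA:U11, SK, Pxn, Treh, Edem1, lncRNA:CR31451 and ND-51 were lost, and with DESeq2 those of CecA1, Rpn3, Hsp70Ba, lncRNA:CR31451 and ND-51. The ND-51 call was also lost without mitochondrially encoded genes, without a filter, with the 8 libraries alone and without both replicate 4 libraries. With the replicate block RpS7, cpx and Yp1 were called and CG8483 was not. The cause was not tested. Calls at low levels needed larger differences, as the smallest called log2 change was 1.08 in the least abundant of 4 equal bins of genes and 0.30 in the most abundant.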
